A study of Mus musculus with 4 samples.

Results

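Arterial endothelial genes are the 5 genes Gkn3, Bmx, Sema3g, Vegfc and Edn1 of a panel of 383 genes that was imaged by MERFISH, a method that counts single RNA molecules of chosen genes in place in a tissue section. The 5 were taken by their gene names and all 5 were measured in every section, but earlier results of these data were known when they were chosen. Coronal sections through the striatum of wild-type C57BL/6NTac mice were compared, 2 from young mice aged 2 months (young 1 and young 2) and 2 from aged mice aged 18 months (aged 1 and aged 2), with no treatment or further allele given in the sources. The study's methods call its replicates biological, so the sections of an age are taken as separate mice, although the labels do not tie a section to a mouse. After removal of cells with few genes or a small volume, between 68011 and 74624 cells were kept in a section, with no cell code shared between sections and with a median of 215 transcripts a cell in aged 1 and of 293 to 400 in the other sections. The 5 members were compared across cell classes, between endothelial-like cells close to and away from cells rich in Acta2, among each other in single cells, and between the ages.

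Arteries, capillaries and veins of the brain are lined by endothelial cells whose gene expression changes gradually along the vessel, and arterial endothelium is wrapped by smooth muscle that contains the actin encoded by Acta2. Bmx encodes a tyrosine kinase of the Tec family that marks arterial endothelium. Gkn3 encodes a secreted protein of the gastrokine family and is known in the brain from the endothelium of arteries. Sema3g and Vegfc encode secreted signals, a semaphorin of class 3 and a growth factor that acts on the receptor VEGFR-3. Edn1 encodes the precursor of endothelin-1, a peptide by which endothelium makes the smooth muscle around it contract.

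The stretch of 120 bases just before the annotated start of each member is shown because these are the promoters of genes that are compared below for their joint expression. The sequences are those of RefSeq on GRCm38.p6, and all 5 members were found there by symbol. Capitals mark the letters GGAA, the core bound by ETS factors of endothelium, and ACAAT, a core bound by SOX factors, each on either strand.

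Gkn3, chr6:87388936-87389055, minus strand: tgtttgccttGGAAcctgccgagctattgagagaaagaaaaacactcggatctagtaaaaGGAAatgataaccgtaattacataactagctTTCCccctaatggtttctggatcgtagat

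Bmx, chrX:164258194-164258313, minus strand: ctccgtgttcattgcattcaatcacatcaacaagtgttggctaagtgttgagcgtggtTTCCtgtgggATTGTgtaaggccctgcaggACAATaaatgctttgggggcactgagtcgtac

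Sema3g, chr14:31217753-31217872, plus strand: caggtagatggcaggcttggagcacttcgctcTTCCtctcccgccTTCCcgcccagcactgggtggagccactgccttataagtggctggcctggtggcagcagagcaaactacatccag

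Vegfc, chr8:54077412-54077531, plus strand: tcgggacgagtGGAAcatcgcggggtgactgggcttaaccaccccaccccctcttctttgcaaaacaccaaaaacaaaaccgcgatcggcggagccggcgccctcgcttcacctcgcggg

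Edn1, chr13:42301356-42301475, plus strand: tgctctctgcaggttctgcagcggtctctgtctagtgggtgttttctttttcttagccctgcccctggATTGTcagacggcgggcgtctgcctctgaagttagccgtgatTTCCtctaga

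GGAA or its reverse complement was in the 250 bases before the start of all 5 members, and in 93.4% of the 27025 promoters of this length in the table. ACAAT on either strand was in those of Bmx (2 matches) and Edn1 (4 matches), and in 28.3% of all promoters. CACCC, a core bound by KLF factors, on either strand was in those of Sema3g (1 match), Vegfc (3 matches) and Edn1 (2 matches), and in 51.3% of all promoters. No match overlapped another. These are counts of letters in the 5 promoters and no measurement of binding.

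All 5 members had their highest mean level in cells of the smooth muscle-like class, and not in the endothelial-like class. Levels are given per section as transcripts of the gene per 10000 transcripts of all cells of a class together, and the members and Acta2 were left out of the clustering that defined the classes. Bmx reached 49.1 and 51.4 per 10000 in the smooth muscle-like cells of young 1 and young 2 and 51.8 and 48.1 in those of aged 1 and aged 2, a mean of 50.1 ± 1.79 (SD, n = 4). In endothelial-like cells it was 7.09, 7.01, 10.2 and 11.3 in the same order, and the 2 ranges did not overlap. Gkn3 was 34.1, 23.5, 20.01 and 26.6 per 10000 in smooth muscle-like cells against 5.65, 4.77, 5.85 and 8.21 in endothelial-like cells. Sema3g was 13.7, 12.5, 10.7 and 12.4 against 4.32, 3.27, 2.98 and 3.15, and Vegfc 13.97, 12.1, 8.84 and 17.5 against 2.16, 2.18, 1.37 and 2.47. For these 4 genes every section had the higher level in smooth muscle-like cells, by 3.17-fold (Sema3g, young 1) to 7.33-fold (Bmx, young 2). Edn1 differed from them, with 26.6, 28.2, 13.4 and 18.0 per 10000 in smooth muscle-like cells against 20.5, 18.3, 17.3 and 26.8 in endothelial-like cells. Its level was the higher one in smooth muscle-like cells of both young sections (1.30-fold and 1.54-fold) and the lower one in both aged sections (0.775-fold and 0.670-fold). The smooth muscle-like range overlapped that of the next class for Edn1 and Vegfc.

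**Figure D1:**
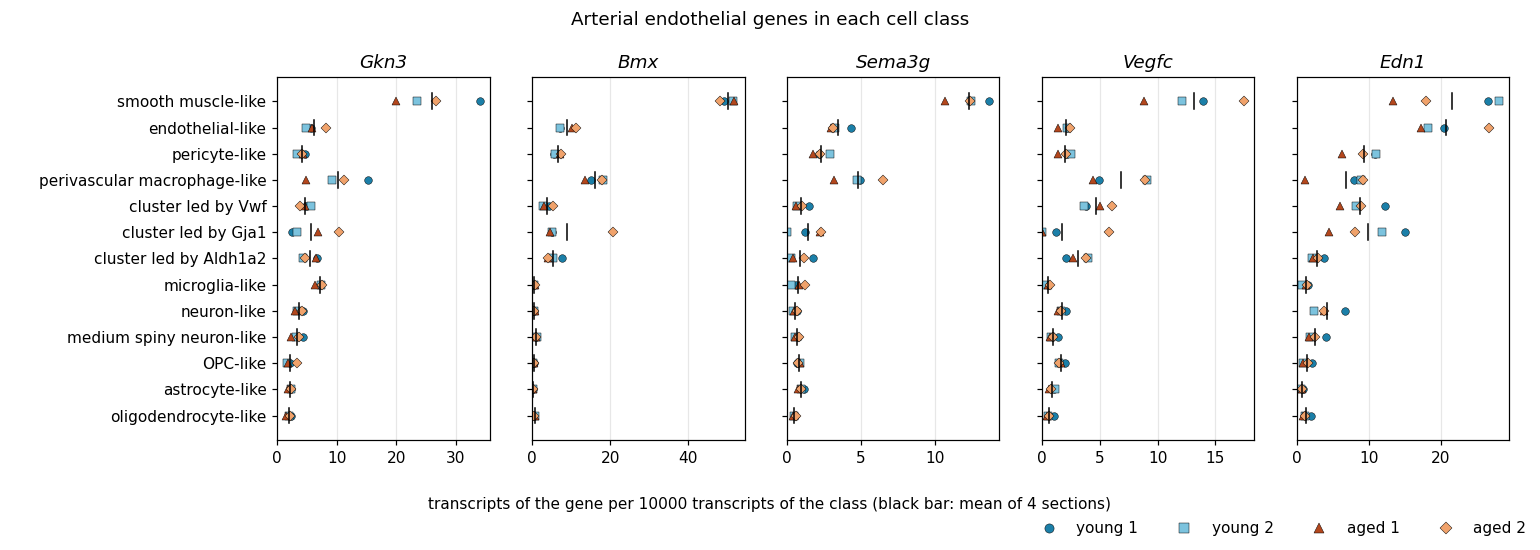
Level of each member (horizontal axis, transcripts per 10000 transcripts) in 13 cell classes and clusters (vertical axis), with 1 symbol for each of the 4 sections and a black bar at their mean. The smooth muscle-like points of Gkn3, Bmx and Sema3g lie to the right of all other classes, while those of Edn1 overlap the endothelial-like points.

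The order below the smooth muscle-like class differed among the members. The perivascular macrophage-like class, a small one that also held 177 ± 42.3 Acta2 transcripts per 10000 (SD, n = 4), came next for Bmx at 16.2 ± 2.21, for Gkn3 at 10.2 ± 4.38, for Sema3g at 4.84 ± 1.35 and for Vegfc at 6.82 ± 2.51. Its range overlapped that of the next class for Gkn3, Sema3g and Vegfc but not for Bmx. Endothelial-like cells followed for Bmx (8.91 ± 2.18) and Sema3g (3.43 ± 0.607), and were lower in the order for Gkn3 (6.12 ± 1.47) and Vegfc (2.05 ± 0.470). Gkn3 was also found in microglia-like cells at 7.14 ± 0.531, whose range overlapped that of endothelial-like cells, and in neuron-like cells at 3.73 per 10000. Vegfc in a cluster led by Vwf, the gene of von Willebrand factor, was 4.64 ± 1.12 and lay above endothelial-like cells in every section. Edn1 in endothelial-like cells, 20.7 ± 4.26, did not overlap the next class, a cluster led by the astrocyte gene Gja1 at 9.85 ± 4.53.

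Smooth muscle-like cells as segmented held transcripts of endothelial cells as well. At least 3 of the 12 endothelial markers were detected in 69.3 to 77.1% of them in a section, against 6.85 to 22.1% of the deeper neuron-like cells. This was not particular to them, since pericyte-like cells, also deeper, gave 72.2 to 87.5% and the higher share in every section. Cldn5, the tight-junction claudin of brain endothelium, was at 34.1, 24.3, 20.4 and 26.2 per 10000 in the smooth muscle-like cells of young 1, young 2, aged 1 and aged 2, and at 31.5 to 50.1 in endothelial-like cells. In smooth muscle-like cells with at least 3 endothelial markers, Bmx was 51.6, 54.0, 55.7 and 51.3 per 10000. In the 45 to 85 such cells of a section in which none of the 12 markers was detected, it was 19.3, 8.39, 14.3 and 12.8, from 8, 5, 7 and 4 transcripts. The other members gave 0 to 3 transcripts a section in those cells, with none of Sema3g in 3 sections, while Acta2 was higher there at 1279 to 2116 per 10000 against 543 to 679. All 5 members were thus lower in the cells without endothelial markers, from few transcripts. Bmx there was still above its level in endothelial-like cells of the same section, but by little in young 2 and aged 2, from 5 and 4 transcripts. Depth was not matched between the cells with and without these markers. The part of segmentation or depth in these differences was not tested.

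The 5 members were found together in single endothelial-like cells. A cell was called positive for a member at 2 transcripts or more, and the level of each other gene in positive cells was divided by its level in cells without that member, the chosen member itself left out of the total. Over the 20 ordered pairs of members the median ratio was 6.14 in young 1, 6.18 in young 2, 5.16 in aged 1 and 4.42 in aged 2, where the median over the 382 other genes of the panel lay between 0.871 and 1.01 for each member. The ratio was above 1 for all 20 pairs in both young sections and for 19 of 20 in both aged sections. It was highest for Gkn3 in Bmx-positive cells of young 2, at 16.2. Positive cells were deeper than cells without the member (for Bmx a median of 212 to 319 transcripts against 119 to 189). With each cell thinned to 100 transcripts the median ratio was 4.02, 3.09, 4.62 and 4.61 in young 1, young 2, aged 1 and aged 2, and it was above 1 for 16, 14, 17 and 19 of the 20 pairs. General endothelial markers did not move as 1 group in Bmx-positive cells. Of the 12 markers, Nostrin (0.522 to 0.664), Itm2a (0.535 to 0.675), Adgrl4 (0.695 to 0.798), Abcb1a (0.761 to 0.883) and Esam (0.783 to 0.899) had ratios below 1 in all 4 sections. Sox18 (1.28 to 1.58) and Podxl (1.18 to 1.62) had ratios above 1 in all 4, and the other 5, among them Cldn5 (0.951 to 1.004), lay on both sides of 1.

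Each member had other members among its closest companions, ranked by the lowest ratio of the 4 sections. Beside Bmx these were Acta2 (lowest ratio 9.996), Gkn3 (7.53) and Vegfc (6.23). Beside Gkn3 they were Mgp (6.71), a matrix protein of artery walls, then Bmx (5.89) and Vegfc (5.80). Beside Sema3g they were Vegfc (7.26), Gkn3 (6.34) and Mgp (3.94), and beside Vegfc they were Sema3g (6.46), Mgp (5.25) and Bmx (4.32). Edn1 had the weakest companions, with Bmx at 2.92, Gkn3 at 2.32 and Sema3g at 2.02. The pair of Vegfc and Edn1 was the exception to joint expression, since Edn1 in Vegfc-positive cells had a ratio of 1.96 and 2.67 in young 1 and young 2 and of 0.279 and 0.708 in aged 1 and aged 2. The aged values rested on 7 and 20 positive cells with 2 and 11 Edn1 transcripts, so they are weak.

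**Figure D2:**
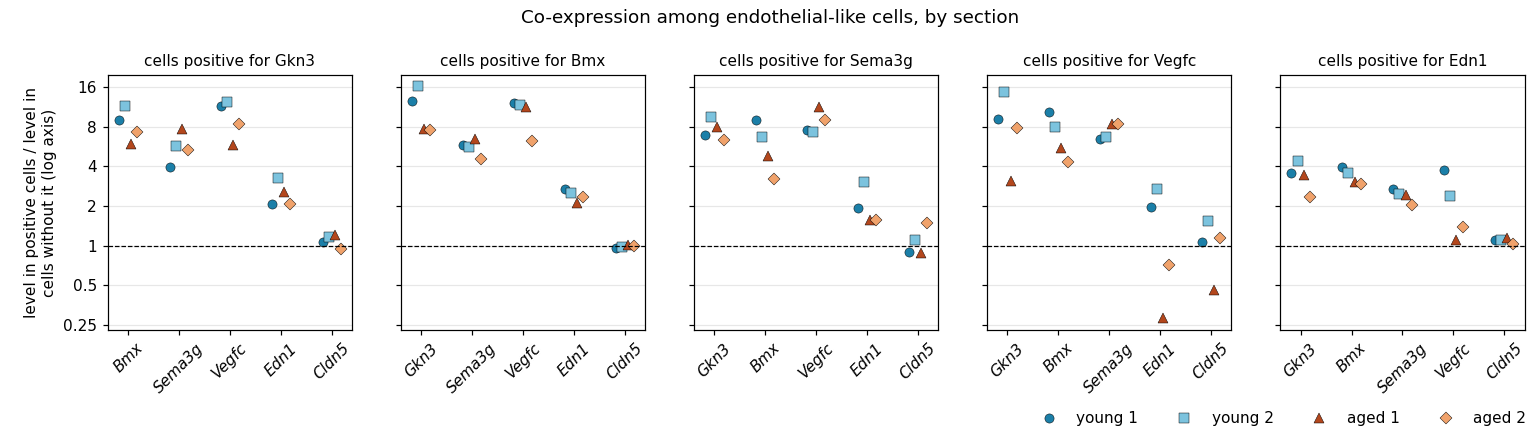
Level of each gene on the horizontal axis in endothelial-like cells with at least 2 transcripts of the member in the panel title, divided by its level in cells with none (vertical axis, log scale), with 1 symbol per section and a dashed line at 1. The other members lie above 1 except Edn1 in Vegfc-positive cells of the aged sections. Cldn5 is shown as 1 of the 12 endothelial markers, whose ratios in Bmx-positive cells ran from 0.522 (Nostrin) to 1.62 (Podxl).

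The members were also found together in endothelial-like cells without a detected Acta2 transcript. Among cells with 0 Acta2 transcripts the median ratio over the 20 pairs was 5.76, 6.28, 5.40 and 4.88 in young 1, young 2, aged 1 and aged 2. There the ratio was above 1 for 20, 20, 19 and 19 pairs, with a lowest ratio of 0.0 in aged 1. Other smooth muscle genes were not filtered in that set. Among cells more than 50 µm from any Acta2-rich cell the median ratio was 5.94, 5.65, 4.83 and 4.83. At a fixed depth of 100 transcripts a cell, 3 or more members were seen in 1.17, 0.467, 0.642 and 1.84% of such far cells.

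Gkn3, Bmx, Sema3g and Vegfc had higher values in endothelial-like cells close to Acta2-rich cells. Among them only Bmx lay clear of counting error in every section. Edn1 was higher close to them in the young sections and lower in the aged ones, where it rested on 2 and 14 transcripts. Acta2-rich cells were cells outside the endothelial-like class with at least 5 Acta2 transcripts that made up at least 100 of 10000, and 558 to 781 were found in a section, 66.4 to 77.3% of them smooth muscle-like. Endothelial-like cells with their centre within 20 µm of one were called near and those beyond 50 µm far. The near sets were small, with 43, 41, 31 and 36 cells in young 1, young 2, aged 1 and aged 2 against 3364 to 3867 far cells. At a fixed depth of 100 transcripts a cell, 11 near cells of aged 1 remained. Gkn3 and Sema3g were seen in 0.0% of them, against 4.74 and 2.32% of far cells. Bmx and Vegfc were seen in 27.3 and 9.09% of them, against 7.46 and 1.14%. In the other sections each of these genes was seen in a larger share of near than of far cells.

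Bmx was 49.9, 57.3, 56.1 and 49.8 per 10000 in near cells and 6.44, 5.96, 9.49 and 10.7 in far cells of young 1, young 2, aged 1 and aged 2. Near and far values did not overlap, and the fitted log2 difference was 2.48 ± 0.27 (SE), with an adjusted p of 5.39e-18. Vegfc was 13.8, 13.6, 5.80 and 12.1 per 10000 near and 1.95, 1.93, 1.32 and 2.23 far, a log2 difference of 2.36 ± 0.42 (adjusted p = 2.54e-07). Gkn3 was 27.5, 43.6, 7.74 and 30.4 near and 5.14, 3.95, 5.54 and 7.86 far. Its near value in aged 1, from 4 transcripts, lay below the far value of aged 2, and the fitted log2 difference was 2.05 ± 0.31 (adjusted p = 5.88e-10). Sema3g was 17.2, 13.6, 5.80 and 6.07 near, from 20, 15, 3 and 5 transcripts, and 4.12, 2.95, 2.90 and 3.05 far, with a log2 difference of 1.45 ± 0.40 (adjusted p = 0.00147). Without young 1 the Sema3g difference was 1.28 and no longer passed (adjusted p = 0.0983). Edn1 was 40.5, 41.8, 3.87 and 17.0 near and 20.3, 17.8, 17.5 and 27.1 far, with a log2 difference of 0.04 ± 0.29 (adjusted p = 0.924). This value averages near over far ratios of 1.995 and 2.35 in young 1 and young 2 with ratios of 0.222 and 0.627 in aged 1 and aged 2. The aged near values rested on 2 and 14 transcripts. For Edn1 in aged 2 the 95% exact Poisson interval of the near value (9.30 to 28.5) covered the far value. Such an interval also covered the far value for Gkn3 (2.11 to 19.8) and Vegfc (1.20 to 17.0) in aged 1. For Sema3g it did so in aged 1 (1.20 to 17.0) and in aged 2 (1.97 to 14.2). Over the alternatives the log2 difference of Edn1 ran from -0.46 to 0.99, and the highest, with endothelial cells taken from marker counts, passed (adjusted p = 0.00784).

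Thus 4 of the 5 members passed in the higher direction, where 13.2% of the 379 genes tested did so (27.4% in either direction) and the median over all genes was -0.05 on the log2 scale. Markers of several other cell types rose in near cells as well. All 4 of the smooth muscle list passed (median 2.62), led by Acta2 at 71.4 to 334 per 10000 near against 1.51 to 4.53 far, and 3 of 5 of the fibroblast list (median 2.75). So did 2 of 4 pericyte markers, 2 of 5 perivascular macrophage markers and 5 of 9 medium spiny neuron markers. Acta2 also defined the Acta2-rich cells, so its own rise, which enters the smooth muscle count and median, is not a separate result. In cells with 0 Acta2 transcripts, the log2 differences were 2.87 for Bmx, 2.65 for Vegfc, 2.36 for Gkn3 and 1.90 for Sema3g, and all 4 passed. That set held 22, 26, 17 and 24 near cells in young 1, young 2, aged 1 and aged 2. Other smooth muscle genes were not filtered in it. The part of neighbouring cells' transcripts in these differences was not tested.

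**Figure D3:**
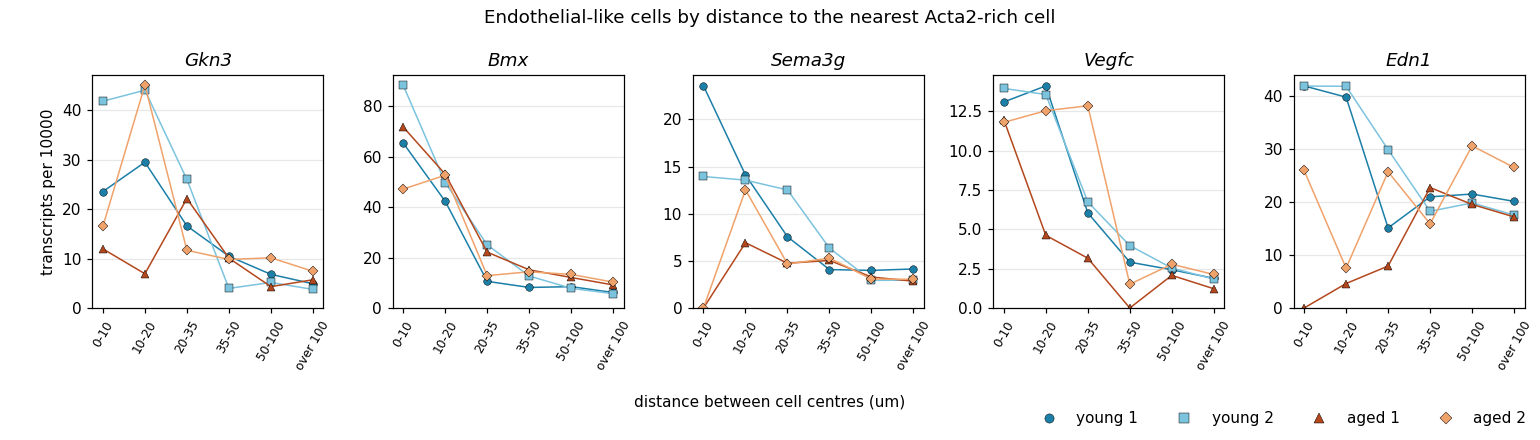
Level of each member in endothelial-like cells (vertical axis, transcripts per 10000) in 6 ranges of distance to the nearest Acta2-rich cell (horizontal axis, µm), with 1 line per section. Bmx is at 47.2 to 88.3 within 10 µm and at 5.68 to 10.3 beyond 100 µm in all 4 sections, and Edn1 is high close to Acta2-rich cells in the young sections and not in the aged ones. The range within 10 µm holds 9 to 19 cells a section.

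With distance, Bmx was lower in each range out to 35 µm in young 1, young 2 and aged 1. In young 1 it was 65.4 per 10000 within 10 µm, 42.3 from 10 to 20 µm, 10.6 from 20 to 35 µm and 6.15 beyond 100 µm. Most positive cells were nevertheless far from Acta2-rich cells. Of the cells with at least 2 Bmx transcripts, 9.29, 11.02, 5.17 and 6.01% were near in young 1, young 2, aged 1 and aged 2, against 0.461 to 0.736% of cells with none, and 81.1 to 90.2% were far. Among the 7 to 25 Vegfc-positive cells of a section, 19.05, 20, 14.3 and 5% were near, against 0.735 to 0.863% of cells with none. Their median distance was smaller than that of cells with none in young 1 (132 against 198 µm) and young 2 (115 against 193 µm). It was larger in aged 1 (228 against 204 µm) and aged 2 (200 against 187 µm). Sema3g-positive and Edn1-positive cells were also farther in aged 1 and closer in the other sections. Bmx-positive and Gkn3-positive cells were closer in every section. Of the Edn1-positive cells 2.54 and 2.59% were near in young 1 and young 2, and 0.244% in aged 2, while none of 168 was in aged 1.

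The genes that went with and against the members near Acta2-rich cells differed by list. Beside Acta2 the genes with the largest higher values were Mgp (log2 difference 3.26), the channel gene Ano1 (3.16), the myosin light chain gene Myl9 (3.10) and Inmt (2.87), a methyltransferase gene of fibroblasts. The lowest were Car4 (-3.09), a carbonic anhydrase of capillaries, Slc16a1 (-2.74), a monocarboxylate transporter of brain endothelium, Slc7a1 (-2.67), a transporter of cationic amino acids, Ctla2a (-2.21) and Itm2a (-2.15). Of 12 genes of blood-brain barrier junctions and transport, 10 fell near Acta2-rich cells and none rose, with a median of -1.61. Of 6 other genes of arterial endothelium, Mgp and Tm4sf1 rose and the chemokine gene Cxcl12 fell, with a median of -0.18. Mgp is also counted in the fibroblast list above. Vcam1, an adhesion molecule, rose at 2.04, and Vwf and Icam1 of the same list did not pass. Of 6 genes of PDGF and TGF ligands and receptors, Pdgfa, Pdgfra, Pdgfrb and Tgfb3 rose. Of the 12 endothelial markers 10 fell, with a median of -0.95, so the 4 members that rose did so while general endothelial genes were lower.

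No member passed the test for age in endothelial-like cells as a whole, where 0.783% of 383 genes passed (0.261% higher and 0.522% lower). Bmx was the closest, with 7.09 and 7.01 per 10000 at the young age and 10.2 and 11.3 at the old one, values that did not overlap, but the log2 difference of 0.60 ± 0.22 had an adjusted p of 0.164. Gkn3, at 5.65 and 4.77 against 5.85 and 8.21, gave 0.42 ± 0.24 (adjusted p = 0.514). Sema3g, at 4.32 and 3.27 against 2.98 and 3.15, gave -0.32 ± 0.26 (adjusted p = 0.744), and its groups did not overlap. Vegfc, at 2.16 and 2.18 against 1.37 and 2.47, gave -0.18 ± 0.29 (adjusted p = 0.879), and Edn1, at 20.5 and 18.3 against 17.3 and 26.8, gave 0.17 ± 0.19 (adjusted p = 0.797). The aged sections lay on both sides of the young ones for Vegfc and Edn1. The 3 genes that passed were Cp, the copper carrier ceruloplasmin, which rose by 0.67 on the log2 scale, and Itm2a and Vwa1, which fell by 0.61 and 0.66.

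Close to Acta2-rich cells Edn1 had lower values in both aged sections than in both young ones, but a test of age in near cells alone gave a log2 difference of -1.81 that did not pass (adjusted p = 0.377), and no gene passed there. In near cells it was 40.5 per 10000 (95% exact Poisson interval 29.7 to 53.8) and 41.8 (30.6 to 55.8) in young 1 and young 2, and 3.87 (0.468 to 13.97) and 17.0 (9.30 to 28.5) in aged 1 and aged 2, from 47, 46, 2 and 14 transcripts. These intervals cover counting error only. The change with age of Edn1 differed between near and far cells by -2.23 ± 0.53 on the log2 scale (adjusted p = 0.0102), and 0.528% of 379 genes passed this test of the difference. The other members had differences of -1.54 ± 0.54 (Gkn3, adjusted p = 0.260), -1.21 ± 0.78 (Sema3g, adjusted p = 0.686), -0.83 ± 0.44 (Bmx, adjusted p = 0.658) and -0.54 ± 0.77 (Vegfc, adjusted p = 0.901). The Edn1 difference was negative in all 16 alternatives but lost its call in 11 of them, among these without young 1 (adjusted p = 0.147), without young 2 (adjusted p = 0.146) and without aged 1 (adjusted p = 0.401). Near cells of aged 1 had a median of 69.0 transcripts against 136 to 252 in the others, and the part of this depth was not tested.

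Because the members were highest in smooth muscle-like cells, their change with age was also taken there, a comparison chosen after the values were seen. These cells numbered 748, 772, 636 and 605 a section and held 614, 649, 156 and 269 Edn1 transcripts. Edn1 was 26.6 and 28.2 per 10000 in young 1 and young 2 and 13.4 and 18.0 in aged 1 and aged 2, so the ages did not overlap. It fell by 0.79 on the log2 scale (SE 0.22, adjusted p = 0.0458), as 1 of 2 genes that passed among 355 (0.563%), the other being the collagen gene Col4a2. Bmx stayed within 48.1 to 51.8 in all 4 sections, with a log2 difference of -0.0034 ± 0.20 (adjusted p = 0.992). The log2 difference was -0.29 ± 0.21 for Gkn3 (adjusted p = 0.637), -0.17 ± 0.23 for Sema3g (adjusted p = 0.8596) and 0.03 ± 0.23 for Vegfc (adjusted p = 0.973). None of the 12 endothelial markers passed there, with differences from -0.57 (Itm2a) to 0.47 (Nostrin) and a median of 0.05. The 11 blood-brain barrier genes tested there had a median of -0.31, and none passed. The call of Edn1 held in 1 of 13 alternatives, which left out aged 2, and the adjusted p of the other 12 was 0.0537 to 0.831.

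**Figure D4:**
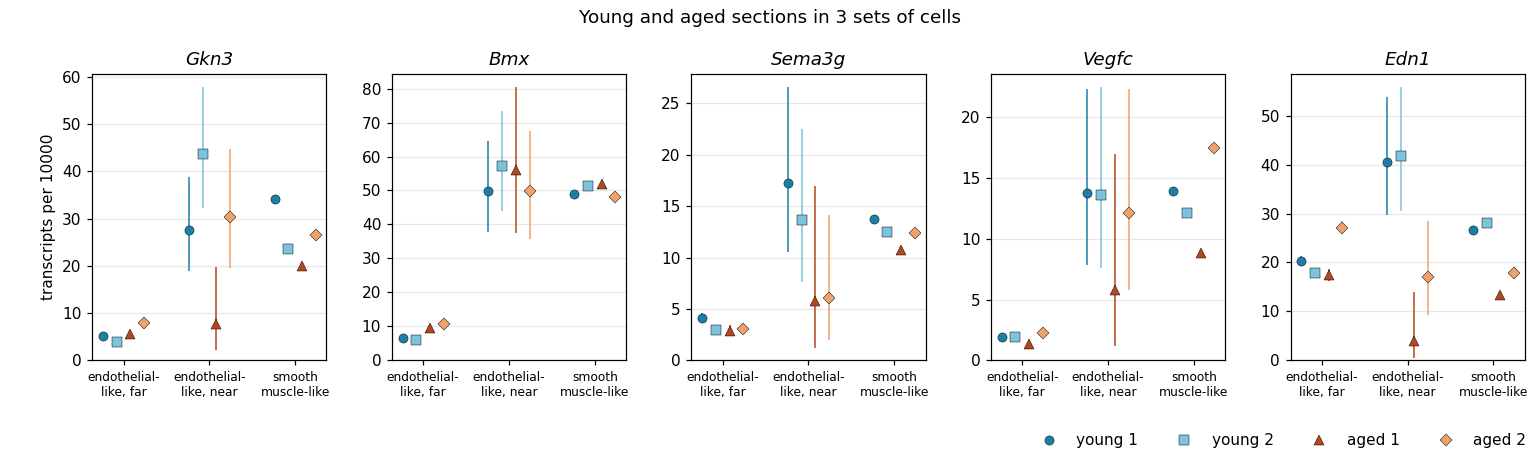
Level of each member (vertical axis, transcripts per 10000) in 3 sets of cells (horizontal axis), with 1 symbol per section and, for near and far endothelial-like cells, 95% exact Poisson intervals for counting error. Edn1 is lower in both aged sections than in both young ones in near and in smooth muscle-like cells, while in far cells the ages overlap, and Bmx in smooth muscle-like cells is alike in all 4 sections.

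The change with age was then compared between smooth muscle-like and endothelial-like cells of the same sections. It was more negative in smooth muscle-like cells for Edn1 by -0.97 ± 0.17 on the log2 scale (adjusted p = 0.0128), for Gkn3 by -0.71 ± 0.17 (adjusted p = 0.0420) and for Bmx by -0.61 ± 0.15 (adjusted p = 0.0480). Sema3g (0.13 ± 0.20, adjusted p = 0.843) and Vegfc (0.20 ± 0.21, adjusted p = 0.734) did not pass. Thus 3 of 5 members passed in the lower direction, where 2.09% of 382 genes did so (2.88% in either direction). For Gkn3 and Bmx the difference combines a higher aged level in endothelial-like cells with a level in smooth muscle-like cells that was lower (Gkn3) or alike (Bmx), and neither change passed alone. Edn1 passed without young 1, aged 1 or aged 2 and not without young 2 (-0.84, adjusted p = 0.169), whereas Gkn3 lost its call with any section left out (adjusted p = 0.126 to 0.169) and Bmx without young 2 (adjusted p = 0.357) or aged 2 (adjusted p = 0.231).

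Genes of the other lists did not pass for age in these cells, with 1 exception. None of the 6 other genes of arterial endothelium, 12 blood-brain barrier genes (11 tested in smooth muscle-like cells), 3 venous and adhesion genes or 4 smooth muscle genes passed in endothelial-like or smooth muscle-like cells, and Itm2a was the only one of the 12 general endothelial genes to pass, in endothelial-like cells. In the comparison of both classes Tgfb3, the gene of transforming growth factor beta 3, was the only gene of the lists to pass, at -0.95 on the log2 scale.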

How the data were processed

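MERFISH data of 4 coronal sections were used, 2 young and 2 aged. Sections follow the titles in the labels, while labels inside the young files carry other numbers. The deposited counts are whole transcripts of 383 genes per cell, which the authors decoded with MERLIN, assigned to cells with Vizgen software and did not normalize, and the deposited cell volume is an imaging signal in cubic micrometres. A deposited table of the authors' mean transcripts per cell was not used. Cells with at least 10 genes and 50 µm³ were kept, scaled per volume and total, and clustered (15 components, 20 neighbours, Louvain in python-igraph 0.11.9 at a resolution of 0.08, then 0.3 within vascular cells) without the 5 members and Acta2. No annotation by the authors was used, so class names are rebuilt from markers. Cells with at least 50% of the mean marker share of another, non-vascular class counted as mixed and were left out, 23.6 to 29.1% of endothelial-like cells, leaving 3484 to 4011 a section. No doublet caller was run.

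Counts were summed per section and tested with edgeR 4.0.16 (TMM, filterByExpr, quasi-likelihood, Benjamini-Hochberg over all genes, threshold 0.05), two-sided. Near against far and differences of change used the section as a block. Each SE was derived from the log2 difference and its F statistic, so it adds nothing to the p-value. The fit shares variance across genes, so neither measures the spread among these sections alone. All 5 members passed the filter in every comparison. DESeq2 1.42.0, limma 3.58.1 (prior count 1) and other settings were alternatives, and the scripts were tested on simulated data. Named genes were the members, list genes past the threshold, the 5 largest each way and the 3 closest companions of each member. The members and lists were chosen with earlier results of these data known. Ratios of co-expression carry no test, since cells of a section are not replicates. The near set was sensitive to where a cell's centre was placed: 3 to 6 cells a section lay within 2 µm inside its limit and 2 to 7 just outside.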

Additional observations from a re-analysis of the deposited data

Results flagged for a closer look

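The change with age of Edn1 differed between near and far endothelial-like cells, by -2.23 on the log2 scale, and between smooth muscle-like and endothelial-like cells, by -0.97. In the second of these comparisons Gkn3 (-0.71) and Bmx (-0.61) also differed. Alas2, which encodes the erythroid enzyme that starts heme synthesis, differed between near and far cells in the other direction, by 3.36 (edgeR, adjusted p = 0.0457), from 2, 2, 12 and 5 transcripts in the near cells of young 1, young 2, aged 1 and aged 2. The 12 transcripts of aged 1 lay in 2 of its 31 near cells (6.45%). What these differences come from was not tested, and the groups of 2 sections were too small to look for sections that stand apart.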

How the results depend on the processing

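With 2 sections an age, the exact permutation test of a single value cannot go below p = 0.333, so calls rest on the edgeR fits across genes. Near sets of 31 to 43 cells with 2 to 63 transcripts of a member limit every value near Acta2-rich cells. Analyses of smooth muscle-like cells, of both classes together or compared, of cells taken from marker counts for nearness, and the crossed block were chosen after seeing the data. The causes of the changes below were not tested.

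No member was called for age in endothelial-like cells under any of 21 alternatives. The count of 3 called genes became 0 with mixed cells kept, in the striatum alone, at 2 times the second clustering resolution, with smooth muscle-like cells added, in near or far cells alone, and with limma, RLE size factors, library totals or cell volume. It became 11 with a mixed rule of 3 detected markers, 5 at a resolution of 0.15 in place of 0.3 and with DESeq2, and 1 with endothelial cells from marker counts. Leaving out 1 section gave 0 to 2. Gkn3 turned to -0.0068 with smooth muscle-like cells added and to -0.77 in near cells, Edn1 to -1.81 in near cells and to -0.21 with cell volume, and with 1 section left out Edn1 ranged from -0.16 to 0.44 and Vegfc from -0.65 to 0.15.

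The correlation of same-numbered deviations from the group means was -0.177 over 383 genes. With 2 sections an age both numbers give this same value, so it cannot settle whether the replicate numbers pair the sections. With the replicate number as a block, 8 genes were called in endothelial-like cells, and 0 in smooth muscle-like cells, where Edn1 was -0.81 (adjusted p = 0.5996) and Vegfc -0.037. With crossed numbers as a block 0 genes were called in endothelial-like cells.

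For near against far cells the calls of Bmx and Vegfc held under all 16 alternatives, and that of Gkn3 under all but limma (1.79, adjusted p = 0.135). The count of 104 became 57 within 10 µm, 42 in cells with 0 Acta2 transcripts, 179 with marker counts and 35 with limma. Sema3g lost its call within 10 µm (1.12), with Acta2-rich cells at 10 transcripts (1.38), in the striatum (1.09) and with limma (1.27), and ranged from 1.21 to 1.63 with 1 section left out. Edn1 was -0.14 at 30 and 100 µm, -0.083 with Acta2-rich cells at 10 transcripts, -0.12 with the highest 1%, -0.22 with mixed cells kept, -0.46 in the striatum, -0.036 with DESeq2 and -0.44 with limma, was called with marker counts (0.99, adjusted p = 0.00784), and ranged from -0.39 to 0.40 with 1 section left out.

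For the difference of the change with age between near and far cells, the count of 2 became 0 within 10 µm, with the highest 1%, marker counts, the striatum, DESeq2 and library totals, 1 with Acta2-rich cells at 10 transcripts and with 0 Acta2 transcripts, 7 at 30 and 100 µm, 8 with mixed cells kept and with limma, and 0 to 9 with 1 section left out. Edn1 lost its call within 10 µm (-1.51), with the highest 1% (-1.54), 0 Acta2 transcripts (-1.35), marker counts (-0.85), the striatum (-1.49), DESeq2 (-2.15), limma (-2.63) and library totals (-2.16), and ranged from -3.50 to -1.75 with 1 section left out. Gkn3 ranged from -2.70 to -0.98, and was called without aged 2 (adjusted p = 0.0431). With 0 Acta2 transcripts Bmx was 0.11, Sema3g 0.64 and Vegfc 0.72, and Vegfc was 0.0021 at 30 and 100 µm.

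For age in smooth muscle-like cells, the count of 2 became 0 with mixed cells kept, limma and RLE size factors, 1 with at least 3 endothelial markers, DESeq2, library totals, cell volume and no filter, and 0 to 4 with 1 section left out. Edn1 lost its call with mixed cells kept (-0.89), at least 3 endothelial markers (-0.77), DESeq2 (-0.79), limma (-0.81), RLE size factors (-0.79), library totals (-0.80), cell volume (-1.27) and no filter (-0.78), and ranged from -1.02 to -0.59 with 1 section left out. Bmx changed sign at 0.00059 with mixed cells kept, 0.035 with at least 3 endothelial markers, 0.0023 with RLE size factors, 0.0090 with no filter and -0.065 to 0.061 with 1 section left out. Vegfc was -0.027 with mixed cells kept, -0.060 with limma, -0.42 with cell volume and -0.54 to 0.44 with 1 section left out.

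For the difference between both classes, the count of 11 became 7 with mixed cells kept, 0 in the striatum and with limma, 19 with library totals and 0 to 18 with 1 section left out. With mixed cells kept Gkn3 was -0.64 and Bmx -0.57 (adjusted p = 0.0543 for both), in the striatum Gkn3 was -0.99, Bmx -0.73, Edn1 -1.13 and Vegfc -0.088, and with limma Gkn3 was -0.70, Bmx -0.61 and Edn1 -0.96, and none of these values was called. With 1 section left out Edn1 ranged from -1.18 to -0.84, Gkn3 from -0.84 to -0.64, Bmx from -0.73 to -0.52 and Sema3g from -0.085 to 0.28.

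Averaged over the 4 sections, the median co-expression ratio of the pairs was 3.85 with cells positive at 1 transcript. It was 4.09 with cells thinned to 100 transcripts, when the ratio was above 1 for 14 to 19 of 20 pairs. The ratio of smooth muscle-like over endothelial-like levels was 4.37 for Sema3g with mixed cells kept, and per cell volume 4.06 for Sema3g and 7.12 for Vegfc. For Edn1 it was 0.914 to 1.20 with 1 section left out.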

Other observations

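Shares of cells with a transcript were not used to place Gkn3, since at least 1 Gkn3 transcript was found in 9.44 to 23.7% of neuron-like cells (median depth 297 to 631 transcripts) and in 5.68 to 8.78% of endothelial-like cells (median depth 125 to 197). Because neuron-like and medium spiny neuron-like cells are numerous, neuron-like cells held 39.5 to 46.0% and medium spiny neuron-like cells 21.0 to 30.9% of all Gkn3 transcripts of a section, and 17.4 to 19.1% and 15.6 to 22.3% of the Bmx transcripts. For Bmx the share of cells with a transcript was 2.21 to 4.03% in neuron-like and 8.003 to 12.2% in endothelial-like cells despite the lower depth of the latter. Vegfc was detected in 4.52 to 12.8% of neuron-like and in 1.72 to 4.04% of endothelial-like cells, and Edn1 in 11.5 to 32.1% and 16.6 to 26.4%. Neuron-like cells also held 46.2 to 54.0% of the Vegfc, 39.5 to 48.8% of the Edn1 and 26.5 to 33.1% of the Sema3g transcripts of a section. What the counts of the members in neuron-like cells and of Gkn3 in microglia-like cells are was not tested.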
